A study of Mus musculus with 8 samples.

Results

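The genes described here are 34 genes of apoptosis, necroptosis and the p53 response, measured in mouse bone marrow-derived macrophages that were made to lose, or kept, their miR-23-27-24 clusters. They were chosen by name, from a list of p53 target genes, BCL2 family members, caspases, death receptors with their adaptors, and necroptosis genes, and the rule uses no measured value, although the list was drawn up with earlier results of these data known. All 34 were present among the 15853 genes of the authors' deposited table, and all 34 were among the 14619 genes with an adjusted p-value. Knockout macrophages had the genotype Mirc11fl/fl Mirc22fl/fl Lyz2Cre/Cre, and control macrophages had the genotype Mirc11fl/fl Mirc22fl/fl Lyz2+/+, with 4 poly(A) RNA-seq libraries in each group. For every library, marrow was differentiated over 7 days with L929 fibroblast medium, a source of M-CSF. The cells were then exposed during 24 h to 250 uM palmitate (C16:0, a saturated fatty acid), 25 mM glucose and 10 nM insulin. The study calls this metabolic activation.

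Mirc11 and Mirc22 carry loxP sites in both groups, and Cre is driven by Lyz2, a gene of myeloid cells. The groups therefore also differ in Cre and in Lyz2 itself, and an effect of these cannot be told apart from loss of the miRNAs. Deletion of the clusters was not measured, because poly(A) selection does not retain mature miRNAs. Lyz2 (chr10:117277331-117282321) had a log2 fold change of -9.10 (SE 0.42 and adjusted p = 6.25e-102) in the authors' deposited table. This sign sets the direction of every other value, knockout over control. All 15 macrophage markers examined were measured, with mean normalized counts of 4513 to 169150 in the authors' deposited table, so the defining markers of the labelled cell type were present. The labels call the libraries biological replicates without naming animals. A p-value therefore sets a change against the spread between these libraries, which may be partly technical. Values of single libraries were not used, because their columns match no sample label. Group means given below were derived from the authors' mean normalized count and fold change with equal group sizes. They carry no SD, and overlap between libraries of the groups could not be examined.

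In cells under stress, the transcription factor p53 is freed from its inhibitor MDM2 and turns on genes that halt the cell cycle, repair DNA or promote death. In the mitochondrial route, BH3-only proteins release BAX and BAK from pro-survival BCL2 proteins, cytochrome c leaves the mitochondrion, and caspase-9 activates the executioner caspases. Death receptors reach caspase-8 through adaptors, and where caspase-8 is held back, RIPK1 and RIPK3 can phosphorylate MLKL and cause necroptosis, a lytic death well studied in macrophages.

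Of the 34 genes, 7 were called higher and 3 lower in knockout macrophages at an adjusted p under 0.05, by DESeq2 in the authors' deposited table. That is 29.4% of the genes, with 20.6% higher and 8.82% lower. Across all genes tested, 23.0% were called, with 11.3% higher and 11.7% lower. The higher genes were Tnfrsf10b, Ccng1, Ripk3, Phlda3, Trp53inp1, Zmat3 and Parp1, and the lower genes were Mcl1, Bak1 and Tnfrsf1a. Centring all fold changes so that the summed group means were equal, by subtracting an offset of -0.06 and thus raising every value, gave counts of 10 higher and 1 lower among the 34, and 2339 higher and 960 lower among all genes. Changes were small in most of the 34 genes. Their median log2 fold change was 0.02, against -0.00 over all genes tested, and the median size of a change was 0.15, against 0.19. The 34 genes were more abundant than all genes tested, with a median mean normalized count of 3154 against 1172. Their median standard error was 0.088, against 0.117 on the log2 scale. Shares called and sizes of change are therefore not compared between genes measured equally well.

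Among the 10 called genes, 4 changed by at least 1.5-fold and 1, Tnfrsf10b, by at least 2-fold. For each of the 24 genes not called, the 95% interval of the fold change lay within 1.5-fold either way. The bound farthest from no change was 1.46-fold, for Mlkl. A p-value before adjustment was under 0.05 for 5 of these 24, which were Casp2, Casp9, Cycs, Cflar and Fadd. Mean normalized counts ran from 257 for Tnfrsf10b to 47478 for Mcl1, with a median of 3154. Standard errors ran from 0.04 to 0.18 on the log2 scale, and 22 of the 34 exceeded the median of the 200 genes nearest in mean count.

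**Figure D1:**
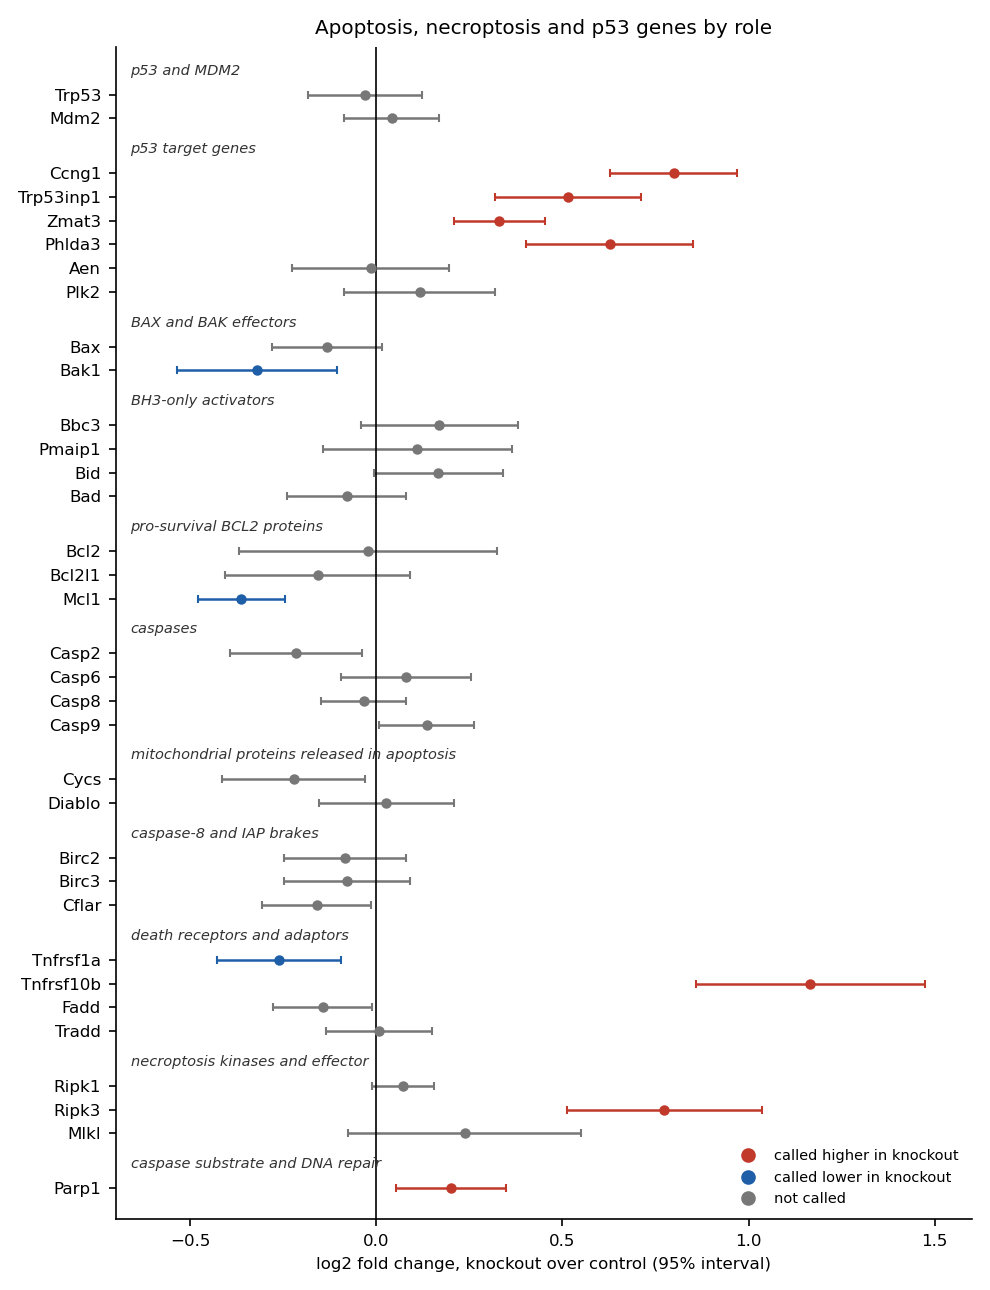
The log2 fold change of each of the 34 genes, knockout over control, is plotted along the x axis with its 95% interval as a bar, and genes run down the page by role. Red points mark the 7 genes called higher, blue points the 3 called lower and grey points the 24 not called. Intervals of the p53 target genes Ccng1, Trp53inp1, Zmat3 and Phlda3 lie to the right of 0, while those of Aen and Plk2 cross it.

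**Figure D2:**
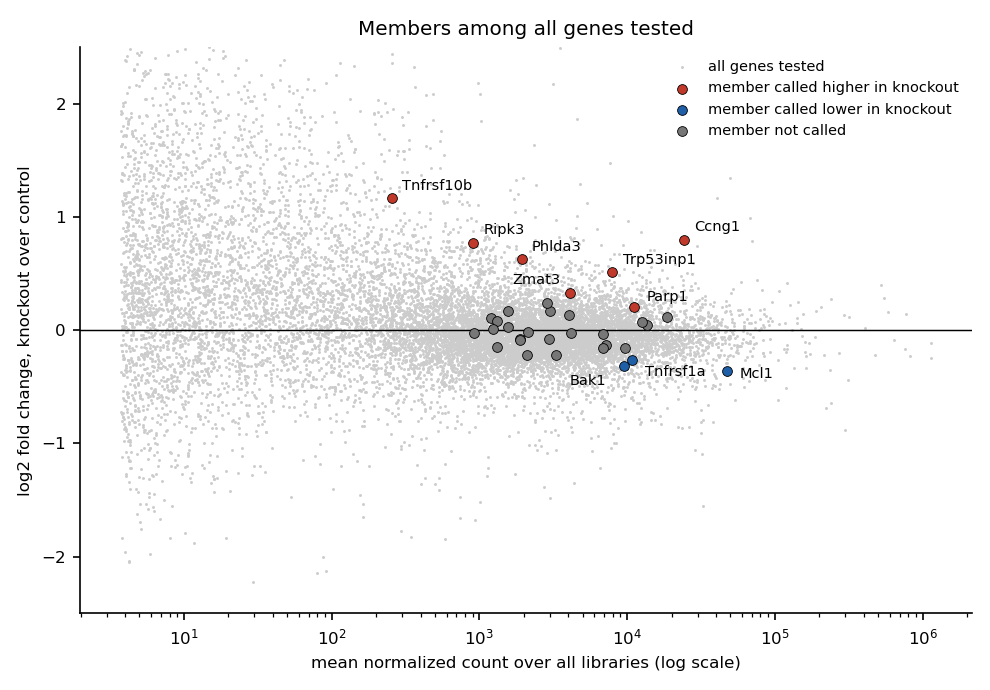
Each gene tested is a grey point, with its mean normalized count on a log scale on the x axis and its log2 fold change, knockout over control, on the y axis. The 34 genes are drawn larger and coloured by call, and 59 genes past 2.5 either way are not drawn. Ccng1 lies far above 0 at a mean of 24347, and Mcl1 is the most abundant of the genes called lower.

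Trp53, which encodes p53, was not called, and neither was Mdm2, its ubiquitin ligase and its own target. In the authors' deposited table, the derived mean of Trp53 was 4135 normalized counts in knockout and 4220 in control macrophages, a log2 fold change of -0.03 with a 95% interval of -0.18 to 0.12 (adjusted p = 0.833). The derived mean of Mdm2 in the authors' deposited table was 13824 in knockout and 13431 in control macrophages, a log2 fold change of 0.04 with an interval of -0.09 to 0.17 (adjusted p = 0.694). Both intervals exclude a change of 1.5-fold at the RNA level. The amount or activity of p53 protein was not measured.

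Several textbook targets of p53 rose, while Trp53 and other p53 targets, Mdm2 among them, were not called. Of the 6 genes kept as p53 targets by role, 4 were called higher, none lower, and their median log2 fold change was 0.42, against -0.00 over all genes tested. Of 11 genes among the 34 grouped here as known p53 targets, 5 (45.5%) were called higher and none lower, with a median of 0.17. Over all genes tested, 11.3% were called higher and 11.7% lower. Besides the 6, the group comprises Mdm2, Bax, Bbc3, Pmaip1 and Tnfrsf10b. Its make-up was a choice that was not part of the planned grouping by role, and these counts depend on it. The direction of the fold change was positive in 9 of the 11, and the negative values were those of Bax and Aen.

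Ccng1 (chr11:40748552-40755311, minus strand) encodes cyclin G1, which recruits the phosphatase PP2A to MDM2. Its derived mean was 30916 normalized counts in knockout and 17777 in control macrophages in the authors' deposited table. That is a 1.74-fold rise, with a log2 fold change of 0.80 (SE 0.09 and adjusted p = 9.80e-18). Ccng1 ranked 46 among the 14619 genes by p-value. The 3′ untranslated region of Ccng1 holds matches to the seeds of miR-23 and miR-27 that lie 5 letters apart, in exon 6 on the minus strand (chr11:40749540-40749568, GRCm38). They are shown because Ccng1 had the smallest adjusted p of the 34 genes and its matches lie so close together. The capitals mark the miR-23 match and then the miR-27 match, each 8 letters long. A further match of 7 letters to miR-23 lies at chr11:40750479-40750485.
Ccng1 site: cataAATGTGAAataaaACTGTGAAcctt

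Phlda3 (chr1:135766119-135769136) encodes a protein that competes with AKT for membrane lipids. It rose 1.54-fold, with a derived mean of 2347 normalized counts in knockout and 1520 in control macrophages, a log2 fold change of 0.63 (SE 0.11 and adjusted p = 1.31e-06) in the authors' deposited table. Trp53inp1 (chr4:11156431-11174379) encodes a stress-induced protein that promotes phosphorylation of p53. It rose 1.43-fold in the authors' deposited table, with derived means of 9333 in knockout and 6533 in control macrophages and a log2 fold change of 0.51 (SE 0.10 and adjusted p = 6.51e-06). Zmat3 (chr3:32334792-32366014) encodes an RNA-binding zinc finger protein that p53 induces. Its derived mean was 4604 in knockout and 3661 in control macrophages in the authors' deposited table, a log2 fold change of 0.33 (SE 0.06 and adjusted p = 3.51e-06).

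Not every p53 target moved. Aen, an apoptosis-enhancing nuclease, had a log2 fold change of -0.01 with an interval of -0.23 to 0.20 in the authors' deposited table (adjusted p = 0.941). Plk2, a polo-like kinase induced by stress, had derived means of 19311 in knockout and 17815 in control macrophages in the authors' deposited table, a log2 fold change of 0.12 (adjusted p = 0.441). Neither could be told apart from no change.

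Markers of cell types moved in the same comparison. Stromal markers, mostly collagens and other fibroblast genes, were called higher for 15 of the 16 measured, and none was at 0. Their summed derived mean was 12910 normalized counts in knockout and 3247 in control macrophages in the authors' deposited table, and their median log2 fold change was 1.96, within a range of 1.15 to 2.33. Macrophage markers were called higher for 1 of 15 and lower for 9 of 15, with a summed derived mean of 956960 in knockout and 1078930 in control macrophages in the authors' deposited table and a median of -0.22. None of 4 measured T, B and NK cell markers or of 3 tested neutrophil markers was called. Each of these lists held 10 markers, and those measured had median mean normalized counts of only 10.7 and 54.6. Changes in these cell types could therefore be missed. In bulk samples, fewer cells of a type and less RNA per cell cannot be told apart. The part of these markers in the changes of the 34 genes was not tested.

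Among the BCL2 family, the pore former Bak1 and the pro-survival gene Mcl1 both fell. Mcl1 (chr3:95658788-95663176), which encodes a short-lived protein that binds BAK and BH3-only proteins, was the most abundant of the 34 genes. Its derived mean was 41544 normalized counts in knockout and 53412 in control macrophages in the authors' deposited table, so that it fell by 22.2%, with a log2 fold change of -0.36 (SE 0.06 and adjusted p = 4.92e-08). Bak1 (chr17:27019810-27029009) fell by 19.9%, with derived means of 8517 in knockout and 10635 in control macrophages and a log2 fold change of -0.32 (SE 0.11 and adjusted p = 0.0207) in the authors' deposited table. An exon of Bak1 overlaps Ggnbp1 on the opposite strand, and no source used here says whether counting was by strand. Such overlaps with another gene exist in 10 of the 34 genes. Those of Bax, Diablo, Ripk1 and Parp1 include a gene on the same strand. Those of Bid, Bad, Bcl2, Casp9 and Fadd are with genes on the opposite strand. The call for Bak1 did not hold with centring on the summed group means (adjusted p = 0.0746).

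No other BCL2 family gene of the 34 was called. Bax, the second pore former, had a log2 fold change of -0.13 with an interval of -0.28 to 0.02 in the authors' deposited table (adjusted p = 0.198). Among the BH3-only genes, in the same deposited table of the authors, Bbc3, which encodes PUMA, was at 0.17 (adjusted p = 0.256) and Pmaip1, which encodes NOXA, at 0.11 (adjusted p = 0.583). Bax, Bbc3 and Pmaip1 have been reported as targets of miR-23a and miR-27a in mouse neurons. In these macrophages the intervals of Bax (-0.28 to 0.02), Bbc3 (-0.04 to 0.38) and Pmaip1 (-0.14 to 0.36) in the authors' deposited table all included 0. Bid, which caspase-8 cleaves to reach the mitochondrion, was at 0.17 (adjusted p = 0.163) and Bad, a BH3-only protein held by growth factor signalling, at -0.08 (adjusted p = 0.514) in the authors' deposited table. The pro-survival genes Bcl2 and Bcl2l1 were at -0.02 (adjusted p = 0.943) and -0.16 (adjusted p = 0.390) in the authors' deposited table. Bcl2 had the widest interval of the 34 genes, at -0.37 to 0.32.

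No caspase of the 34 was called. Casp2, an initiator caspase linked to p53, came nearest, with derived means of 1959 normalized counts in knockout and 2274 in control macrophages and a log2 fold change of -0.22 (SE 0.09 and adjusted p = 0.0675) in the authors' deposited table. Casp9, the initiator of the mitochondrial route, had derived means of 4260.0 in knockout and 3877 in control macrophages and a log2 fold change of 0.14 (SE 0.07 and adjusted p = 0.115) in the authors' deposited table. With centring on the summed group means Casp9 was called higher (adjusted p = 0.0148). Casp8, the initiator at death receptors, was at -0.03 and the executioner Casp6 at 0.08 in the authors' deposited table (adjusted p = 0.728 and 0.561). The interval of Casp8, -0.15 to 0.08, was among the narrower ones.

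Proteins that leave the mitochondrion in apoptosis were likewise not called. Cycs, which encodes cytochrome c, had derived means of 3029 in knockout and 3533 in control macrophages and a log2 fold change of -0.22 (SE 0.10 and adjusted p = 0.0839) in the authors' deposited table. Diablo, which encodes the IAP antagonist SMAC, was at 0.03 (adjusted p = 0.872) in the authors' deposited table.

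Of the 34 genes, the death receptor genes Tnfrsf10b and Tnfrsf1a moved in opposite directions. Tnfrsf10b (chr14:69767472-69784411), which encodes the mouse receptor for TRAIL and is a p53 target, had the largest fold change of the 34 genes. Its derived mean was 355 normalized counts in knockout and 158 in control macrophages in the authors' deposited table, a 2.24-fold rise with a log2 fold change of 1.17 (SE 0.16 and adjusted p = 1.35e-11). It also had the lowest mean count of the 34. Tnfrsf1a (chr6:125349362-125362484), which encodes TNF receptor 1, fell by 16.5%, with derived means of 9864 in knockout and 11817 in control macrophages and a log2 fold change of -0.26 (SE 0.08 and adjusted p = 0.0137) in the authors' deposited table. With centring on the summed group means Tnfrsf1a was not called (adjusted p = 0.0755).

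Adaptors and brakes below the receptors were not called. Fadd, which brings caspase-8 to the receptor, was at -0.14 (adjusted p = 0.106) and Tradd, the adaptor of TNF receptor 1, at 0.01 (adjusted p = 0.958) in the authors' deposited table. Cflar, which encodes the caspase-8 inhibitor c-FLIP, had derived means of 9150.1 in knockout and 10219 in control macrophages and a log2 fold change of -0.16 (SE 0.07 and adjusted p = 0.106) in the authors' deposited table. Birc2 and Birc3, which encode the ubiquitin ligases cIAP1 and cIAP2, were both at -0.08 in the authors' deposited table (adjusted p = 0.504 and 0.556).

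Of the necroptosis genes, Ripk3 rose and its partners were not called. Ripk3 (chr14:55784995-55788865) encodes the kinase that phosphorylates MLKL. Its derived mean was 1148.5 normalized counts in knockout and 672 in control macrophages in the authors' deposited table, a 1.71-fold rise with a log2 fold change of 0.77 (SE 0.13 and adjusted p = 2.99e-07). Mlkl, the membrane effector, had derived means of 3084 in knockout and 2616 in control macrophages and a log2 fold change of 0.24 (SE 0.16 and adjusted p = 0.288) in the authors' deposited table. Its interval, -0.08 to 0.55, was among the wider ones. Ripk1, the upstream kinase, had the smallest standard error of the 34 genes, with a log2 fold change of 0.07 and an interval of -0.01 to 0.16 in the authors' deposited table (adjusted p = 0.216). With centring on the summed group means Ripk1 was called higher (adjusted p = 0.0109). Phosphorylation of these proteins and cell death were not measured.

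Parp1 (chr1:180568924-180601254), which encodes a DNA damage sensor and classic caspase substrate, rose 1.15-fold. Its derived mean was 11927 normalized counts in knockout and 10380 in control macrophages in the authors' deposited table, with a log2 fold change of 0.20 (SE 0.08 and adjusted p = 0.0364). This was the smallest change among the called genes and the nearest to the threshold, and an exon overlaps the miRNA gene Mir6904 on the same strand.

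Other genes of the pathways were read from lists that do not include the 34. Of 25 further p53 targets tested, 11 were called higher and 1 lower, and the log2 fold change had a median of 0.15 and was positive in 20. The higher calls make up 44% of this list, beside 11.3% in the background of all genes tested. For the lower calls the shares are 4% and 11.7%. Sesn2, which encodes an inhibitor of mTORC1, rose 1.87-fold, with derived means of 5922 in knockout and 3164 in control macrophages and a log2 fold change of 0.90 (SE 0.07 and adjusted p = 6.85e-40) in the authors' deposited table. Gtse1, which encodes a regulator of p53 in the G2 phase, was at 0.74 (SE 0.12 and adjusted p = 1.30e-07) and Ddit4, another brake on mTORC1, at 0.64 (SE 0.12 and adjusted p = 3.25e-06) in the authors' deposited table. Dcxr, a carbonyl reductase, was at 0.60 (SE 0.08 and adjusted p = 4.59e-12) and Apaf1, the scaffold of the apoptosome, at 0.58 (SE 0.11 and adjusted p = 2.10e-06) in the authors' deposited table. Cdkn1a, the cell cycle inhibitor p21 and a hallmark target, was not called, at -0.15 (SE 0.10 and adjusted p = 0.274) in the authors' deposited table. The p53 target called lower was Trp53i13, at -0.42 (SE 0.13 and adjusted p = 0.00833) in the authors' deposited table. Cdkn1a and Trp53i13 were chosen after their values were seen.

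Of 9 other regulators of p53, 5 (55.6%, against 11.3% of all genes tested) were called higher and none lower, with a median of 0.23. They were the damage kinases Atm, Atr and Chek2, the p53-binding repair factor Trp53bp1 and the inhibitor Mdm4. Their log2 fold changes in the authors' deposited table lay between 0.19 for Trp53bp1 (SE 0.06 and adjusted p = 0.00566) and 0.54 for Atm (SE 0.18 and adjusted p = 0.0158). Mdm4, a relative of MDM2, was at 0.23 (SE 0.08 and adjusted p = 0.0193) in the authors' deposited table. At an adjusted p under 0.01, Mdm4, Atm and Atr (adjusted p = 0.0312 by DESeq2) were no longer called.

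Other members of the BCL2 family changed in both directions, with 2 of 13 called higher and 3 lower and a median of -0.16. These shares are 15.4% and 23.1%, against 11.3% and 11.7% of all genes tested. Bmf, a BH3-only protein bound to the cytoskeleton, fell to a derived mean of 1287 normalized counts in knockout, against 2166 in control macrophages, a log2 fold change of -0.75 (SE 0.13 and adjusted p = 1.28e-07) in the authors' deposited table. Bcl2a1a and Bcl2a1d, near-identical copies of a pro-survival gene, were at -1.47 (SE 0.49) and -0.51 (SE 0.14) in the authors' deposited table. The third copy measured, Bcl2a1b, was far more abundant, with derived means of 9341 normalized counts in knockout and 11851 in control macrophages, and was not called, at -0.34 (SE 0.15 and adjusted p = 0.0846) in the authors' deposited table. Bcl2a1b was chosen after its values were seen, and all 3 values are uncertain, because such copies share reads. Bok and Bcl2l14 were at 2.15 (SE 0.69) and 2.16 (SE 0.85) in the authors' deposited table, at mean normalized counts of only 7.18 and 8.01.

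Of 16 other caspase and apoptosome genes, 3 were called higher and 3 lower. Each count makes up 18.75% of this list, while the background of all genes tested had 11.3% higher and 11.7% lower. Dffb, the caspase-activated DNase, rose 1.68-fold, at a log2 fold change of 0.75 (SE 0.12 and adjusted p = 8.99e-09) in the authors' deposited table. Htra2, an IAP antagonist, and Parp2 fell, with log2 fold changes of -0.22 and -0.21 in the authors' deposited table (adjusted p = 0.0191 and 0.0244). Of 25 other death receptor and necroptosis genes, 1 (4%) was called higher and 2 (8%) lower, both below the shares of all genes. They were the kinase Mapk9 at 0.18 (adjusted p = 0.00814), the adaptor Ticam1 at -0.24 (adjusted p = 0.0326) and the kinase Ikbkb at -0.17 (adjusted p = 0.0361) in the authors' deposited table. Over all 86 other pathway genes, each counted in a single list, 21 (24.4%) were called higher and 9 (10.5%) lower. With centring on the summed group means the counts were 24 higher and 4 lower, and 2339 higher and 960 lower among all genes.

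**Figure D3:**
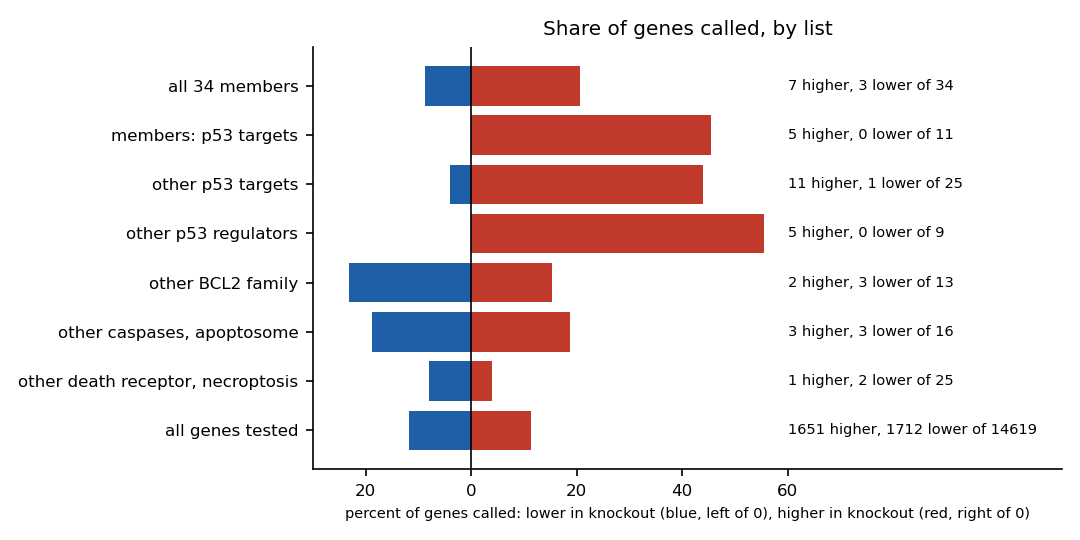
Bars give the percent of genes called lower in knockout (blue, left of 0) and higher in knockout (red, right of 0) in each list, with all genes tested at the bottom, and the counts stand at the right. Among genes grouped as p53 targets, 5 of 11 from the 34 and 11 of 25 others were called higher, against 11.3% of all genes tested. The group of 11 was not among the planned groups. The lists for the BCL2 family and the caspases are divided between both directions.

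The deleted clusters encode 3 miRNA families, whose mature sequences are shown with their seeds, bases 2 to 8, in capitals, because seed pairing sets the match searched for in the 34 genes. They come from RefSeq on GRCm38. The forms miR-27a and miR-27b share their seed, and miR-23b-3p is named only. The miR-23a hairpin cluster lies on chromosome 8, where miR-23a-3p spans chr8:84208563-84208583, miR-27a-3p spans chr8:84208727-84208747 and miR-24-3p spans chr8:84208875-84208896, all on the plus strand. On chromosome 13, miR-27b-3p spans chr13:63300760-63300780 and miR-24-3p spans chr13:63301251-63301272.
miR-23a-3p: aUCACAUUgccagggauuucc
miR-27a-3p: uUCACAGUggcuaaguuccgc
miR-27b-3p: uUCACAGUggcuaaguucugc
miR-24-3p: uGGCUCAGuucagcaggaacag

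The longest annotated 3′ untranslated region of each gene was searched, on the transcript's strand, for AATGTGA (miR-23), ACTGTGA (miR-27) and CTGAGCC (miR-24), which pair with bases 2 to 8. A following A makes the match 8 letters long. At least 1 match was present in 19 of the 34 genes (55.9%), against 5343 of 13082 genes tested with such a region (40.8%), and the median length searched was 1452 nucleotides in the 34 genes and 1166 in all. For matches of 8 letters the shares were closer, at 23.5% and 19.4%. A match to miR-23 or miR-27 was present in 5 of the 7 genes called higher, in 1 of the 3 called lower and in 6 of the 24 not called. The shares over all genes were 42.4% of those called higher, 20.3% of those called lower and 28.7% of those not called. Median lengths searched among the 34 genes were 1845 nucleotides for those called higher, 1121 for those called lower and 1452 for those not called. Over all genes they were 1442, 1096 and 1142.5 in the same order, and the shares were not adjusted for length. A match is a description of the sequence and not evidence of a working site.

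Matches in the called genes besides Ccng1 are shown with 4 letters on either side, the match in capitals, since these are the transcripts that changed. The Ripk3 match ends the annotated region, so no letters follow it. Their positions on GRCm38, given for the match, are chr3:32335235-32335242 and chr3:32335003-32335010 for Zmat3 (minus strand), chr14:69783419-69783425 and chr14:69784124-69784130 for Tnfrsf10b (plus strand), chr4:11173588-11173594 for Trp53inp1 (plus strand), chr14:55784995-55785001 for Ripk3 (minus strand) and chr1:180601128-180601134 for Parp1 (plus strand). Those of the genes called lower are chr3:95661314-95661321 and chr3:95662477-95662483 for Mcl1 (plus strand), chr6:125362174-125362181 for Tnfrsf1a (plus strand) and chr17:27020307-27020313 for Bak1 (minus strand).
Zmat3 miR-23: agagAATGTGAAcctt
Zmat3 miR-27: atcaACTGTGAAttgt
Tnfrsf10b miR-27, first: agatACTGTGAtagg
Tnfrsf10b miR-27, second: gatgACTGTGAgcat
Trp53inp1 miR-23: ttgaAATGTGAcacc
Ripk3 miR-27: gttaACTGTGA
Parp1 miR-24: gcgaCTGAGCCtgta
Mcl1 miR-23, first: caggAATGTGAAggga
Mcl1 miR-23, second: tcagAATGTGAcctt
Tnfrsf1a miR-24: ctgcCTGAGCCAgcca
Bak1 miR-24: gattCTGAGCCcaga

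The Ripk3 match stands at the last letters of an untranslated region of 202 nucleotides. Phlda3, which rose, had no match in its 727 nucleotides, and Parp1 had 1 match, to miR-24. Mcl1, which fell, holds 2 matches to miR-23, of which the first is 8 letters long. Plk2, with 3 matches to miR-27 in 620 nucleotides, and Bbc3, with an 8-letter match to miR-27, were not called.

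**Figure D4:**
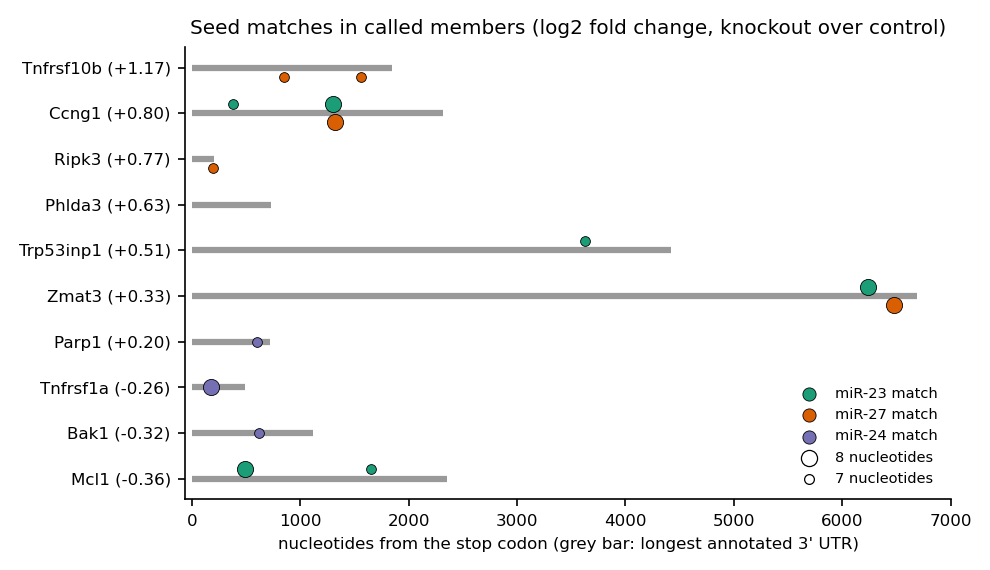
Each grey bar is the longest annotated 3′ untranslated region of a called gene, drawn in nucleotides from the stop codon, and points are seed matches, larger for 8 letters and set slightly above or below the bar by miRNA. Genes run from the highest log2 fold change, 1.17 for Tnfrsf10b, to the lowest, -0.36 for Mcl1. The miR-23 and miR-27 matches of Ccng1 fall almost at the same place.

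The p53 response element was searched on both strands of RefSeq promoter windows of 300 bases (250 before and 50 after the start, GRCm38.p6), which matched 29 of the 34 genes. Tnfrsf10b, Trp53inp1, Zmat3, Pmaip1 and Tradd were not searched, so that 3 of the 5 p53 targets called higher were not examined. The full element of 20 letters, made of 2 decamers set apart by 0 to 13 bases, matched exactly in 0 of the 29 and in 20 of 27025 genes of the table (0.0740%). With matches so rare, 0 among 29 genes says little about these genes, and elements outside the windows were not searched. A single decamer matched in 6 of 29 (20.7%), namely Aen, Bax, Birc2, Ccng1, Mdm2 and Trp53, against 9.55% of all genes in the table. With up to 2 mismatches the full element matched in 5 of 29 (17.2%), against 11.5% of all. The window of Ccng1 (chr11:40755237-40755536, minus strand) is shown because Ccng1 had the smallest adjusted p of the 34 genes. Its capitals mark a full element with 1 mismatch and no gap that begins 195 bases before the start.
Ccng1 promoter: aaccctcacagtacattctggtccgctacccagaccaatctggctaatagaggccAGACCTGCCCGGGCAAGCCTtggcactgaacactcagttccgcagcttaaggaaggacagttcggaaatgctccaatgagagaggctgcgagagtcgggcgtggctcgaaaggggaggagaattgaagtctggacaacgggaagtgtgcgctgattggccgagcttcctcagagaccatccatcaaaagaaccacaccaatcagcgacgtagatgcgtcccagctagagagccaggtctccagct

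Bax, which was not called, held a similar element with 1 mismatch that begins 212 bases before its start. Such letters thus stood both before a gene that rose and before a gene that was not called. Binding of p53 was not measured.

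Of the 34 genes, Mdm2 lies nearest to an altered locus, 407 kb from Lyz2 on chromosome 10, and it was not called. Tradd and Mlkl lie 21.0 and 27.1 Mb from Mirc11 on chromosome 8, and Ripk1 and Plk2 lie 29.3 and 47.1 Mb from Mirc22 on chromosome 13, and none of these was called. The 10 called genes lie on other chromosomes than the altered loci.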

How the data were processed

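Poly(A) RNA of 8 libraries, 4 knockout and 4 control, was measured, and groups were taken from the sample labels. The submitters' processing notes name the build mm10 and the tools DESeq2, Salmon, cutadapt and FastQC; their versions and settings are not stated in any source used here. Per the file headers, the deposited comparison gives, for each gene, a signal (the authors' mean normalized count), the authors' log2 fold change, the standard error of that change, a score (the authors' Wald statistic, 2-sided) and the authors' p-value and adjusted p-value. Which genotype is the numerator is not stated, and the sign was read from Lyz2. Another 8 columns of normalized values per library match no sample label and were not used, so depth per library is unknown here.

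From these values were computed calls (adjusted p under 0.05, by the authors' DESeq2 test over 14619 genes), 95% normal intervals from the standard error, group means derived with equal group sizes, and counts and medians over lists, with no test of a list. Python 3.11.15 and scipy 1.17.1 were used, and the steps were tested on simulated data. Positions and 3′ untranslated regions were those of GENCODE M21 on GRCm38, which is mm10, mature miRNAs and promoters from RefSeq.

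The 34 genes, the gene lists and the tests were chosen with earlier results of these data known. All 34 genes are named, and of each other list the 5 genes with the smallest adjusted p under 0.05, except for 1 gene that is not reported here. Alternatives were a stricter threshold, no filter or a higher filter on the mean, and centring of all fold changes on the summed group means or on their median, as well as 8-letter seed matches and shorter or mismatched p53 elements.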

Additional observations from a re-analysis of the deposited data

How the results depend on the processing

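Of the 34 genes, 24 kept their direction and their call under all 5 alternatives. At an adjusted p under 0.01, 6 genes were called higher and 1 lower (1047 and 1009 of all 14619 tested), with Bak1, Tnfrsf1a and Parp1 no longer called, and of the 86 other pathway genes 12 were called higher and 3 lower. Centring on the summed group means gave 10 higher and 1 lower among the 34, adding Bid (adjusted p = 0.0438), Casp9 and Ripk1, and 24 higher and 4 lower among the others. Among all genes tested it gave 2339 higher and 960 lower. Centring on the median of genes with a mean of at least 50, by subtracting an offset of -0.03, called Casp9 higher (adjusted p = 0.0497). It gave 22 higher and 5 lower among the other pathway genes, and 1937 higher and 1306 lower among all genes tested. Changes of sign were limited to genes not called: with centring on the summed means the log2 fold changes were 0.0337 for Trp53, 0.0482 for Aen, 0.0397 for Bcl2 and 0.0292 for Casp8, and with centring on the median 0.000387 for Trp53, 0.0148 for Aen and 0.00631 for Bcl2. These shifts follow from the construction of the alternatives. With 8-letter seed matches, 8 of the 34 genes (23.5%) had a match instead of 19, against 19.4% of all genes searched. The p53 element matched 0 promoters in full, 6 as a single decamer and 5 with up to 2 mismatches, the last an alternative added after the data were seen. No paired analysis was possible because no value could be tied to a replicate number. Fits on values per library (limma, other pseudocounts, single libraries left out) were not run, and no library could be examined on its own.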
